A study of Rattus norvegicus with 2 samples.

Results

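Serpins are protease inhibitors and related proteins with a common fold, grouped into clades by a letter in the gene symbol. In the rat retina data, 40 of the 32662 listed genes have a symbol made of Serpin, a clade letter from a to i and a digit, and these 40 genes were taken as the serpin family. Of them, 39 are described here, and every count below is over these 39. The data are 2 RNA-seq libraries from retinas of female Long-Evans rats aged 2 months, made after removal of ribosomal RNA. CTRL comes from a retina after a sham procedure, and IR12 from a retina in which blood flow was interrupted and which was taken 12 hours after reperfusion. Each condition has 1 library, so no difference given here has a replicate error. Expression was deposited as FPKM, a level per transcript length and per sequenced fragments. A change is given as the log2 ratio of (FPKM + 1), IR12 over CTRL, which makes the differences of low genes look smaller than they are. A gene counts as higher or lower when it differs by at least 2-fold on this scale and its mean FPKM over both libraries is at least 1.

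A serpin offers its target a loop that the protease cuts, and the cut serpin changes shape and traps the protease in a complex that does not come apart. Serpins of this kind limit plasminogen activation, coagulation, complement and the proteases of leukocytes. Others have lost the inhibitory role and serve as hormone carriers, as a collagen chaperone or, in the case of Serpinf1, as a secreted factor that restrains vessel growth and supports photoreceptors and neurons.

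The labelled tissue was checked first. Of 7 rod photoreceptor markers, 6 are listed and all 6 had a mean FPKM of at least 1, with none of them 2-fold higher or lower (1 higher on the TPM scale). Gnat1, the rod transducin gene, was the most abundant of the 6 by mean, with 4027 in CTRL and 4237 in IR12, and the summed FPKM was 9687 and 11199. Over all 13186 genes with such a mean, 6.05% were lower and 6.29% higher (3.22% and 20.7% on the TPM scale). The Mueller glia list was less even than the rod list, since 5 of its 7 genes were lower in IR12 and 1 was higher (4 and 2 on the TPM scale). Its summed FPKM was 1866 in CTRL and 1237 in IR12. Clu, the clusterin gene, was its most abundant by mean with 223 and 673, and Glul, the glutamine synthetase gene, had 754 in CTRL and 126 in IR12. Fewer cells of a type and less RNA per cell cannot be told apart in such bulk libraries, and this holds for every gene named below.

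Most serpin genes were at or near the lower end of the data. At 0 in both libraries were 13 of the 39 genes, another 17 had a value above 0 but a mean FPKM under 1, and 9 had a mean FPKM of at least 1 and are called expressed here. The share of genes with a mean FPKM of at least 1 was thus 9 of 39, compared with 40.4% of all listed genes. The share at 0 in both libraries was 33.3%, compared with 41.5% of all listed genes. Above 0 in IR12 but not in CTRL were 9 of the 39 serpins, and 1, Serpina5, was above 0 in CTRL but not in IR12. Over all 32662 listed genes these numbers were 1834 and 682. The authors report more reads for IR12 than for CTRL, and the part of depth in these numbers was not tested. All 37 mitochondrial genes are also listed at 0, so a gene listed at 0 need not be silent.

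By clade, the expressed serpins were 4 of 16 in clade b, 1 of 2 in clade e, 1 of 2 in clade f, 1 of 2 in clade i and the single members of clades g and h. None of the 13 genes listed under a clade a symbol and neither of the single genes of clades c and d reached a mean FPKM of 1. By these symbols, the expressed serpins came from 6 of the 9 clades. LOC299282, which RefSeq names Serpina3l and which is thus of clade a, is not counted here and is given below.

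Of the 9 expressed serpins, 1 was higher in IR12, namely Serpinb2, and 1 was lower, namely Serpinf1. Over the 13186 genes with the same mean FPKM, 6.29% were higher and 6.05% were lower. Among those with a mean FPKM from 1 to under 10, where Serpinb2 and Serpinf1 lie, 8.29% were higher and 7.46% lower, and at 10 or more 4.86% and 5.05%. Counts of 1 and 1 among 9 genes are too small to set these serpins apart from such shares. A gene under 1 in 1 library reaches this mean only through the other, which fixes the direction of its difference and, if the low value is near enough to 0, the 2-fold size as well. Both are fixed for Serpinb2, at 0 in CTRL, and for Serpinf1, at 0.311 in IR12, so these calls follow from the low value and the filter. With an FPKM of at least 1 asked of both libraries, an alternative chosen after seeing the data, 7 serpins remained and none was higher or lower, beside 4.37% and 4.19% of 12243 genes, and the median was again 0.17. The 9 log2 ratios had a median of 0.17, beside 0.02 for all genes (0.75 and 0.60 on the TPM scale), and 7 of them were above 0, compared with 51.9% of all genes. Of the 9 genes, 4 lay within 0.25 of no change, a share of 44.4%, compared with 39.5% of all genes.

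**Figure D1:**
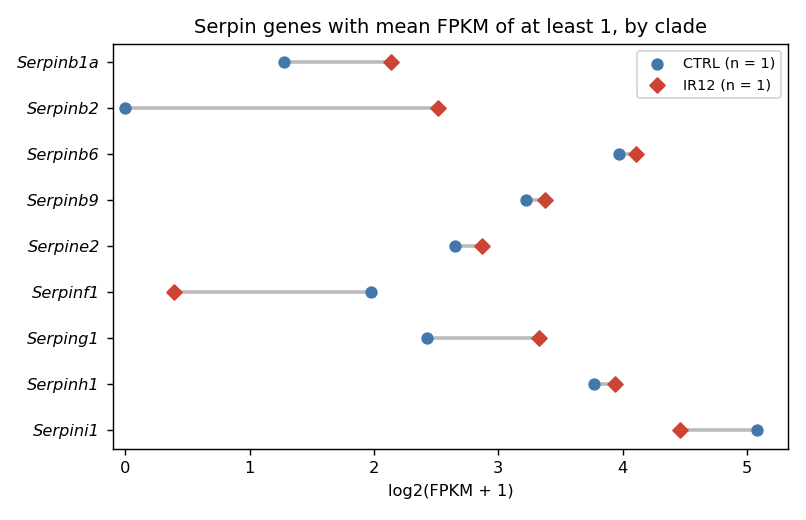
Level of each serpin gene described with a mean FPKM of at least 1, as log2(FPKM + 1), with a circle for CTRL, a diamond for IR12 and 1 library each. The long lines belong to Serpinb2, higher in IR12, and to Serpinf1, lower in IR12 (FPKM 2.94 in CTRL and 0.311 in IR12), while Serpinb6, Serpinb9, Serpine2 and Serpinh1 have short ones.

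How many serpins count as higher depends on the scale. The sum of all FPKM was 1402321 for CTRL but 895199.9 for IR12, and rescaling both to the same sum (TPM scale) moves the median log2 ratio of all genes by 0.57. On that scale 3 serpins were higher and 1 was lower, and over all genes 20.7% were higher and 3.22% lower (2731 and 425 genes, in place of 829 and 798). With a pseudocount of 0.1 the serpin counts were 3 and 1, beside 7.84% and 8.01% of all genes, and with a 1.5-fold limit they were 3 and 2, beside 14.3% and 13.4%. The additional higher genes were Serping1 and Serpinb1a in each case, and the additional lower gene was Serpini1.

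For the promoters of the expressed serpins and of Serpina3l, RefSeq sequences on GRCr8 were searched from 250 bases before to 50 bases after the listed transcription start. A single entry was found for 8 of the 10 genes sought, while Serping1 has none in the table used and Serpinb6 has 2 and was left out. Both strands were searched for 6 motifs. A loose form of the AP-1 motif, TGANTCA with any base in the middle, occurs in 7.33% of all 33469 windows. Among the serpins it was found in that of Serpinb2, with its first base at position -189 from the start. The letters there are TGATTCA, which is not the stricter AP-1 consensus with C or G in the middle. The STAT motif TTCNNNGAA occurs in 8.87% of windows and in that of Serpina3l, at -129. The heat shock element GAANNTTC occurs in 8.59% and in that of Serpinh1, at -30. TATAAA, in 14.2% of windows, was found in that of Serpinb1a, at -62. The GC box CCGCCC, in 33.1% of windows, was found in those of Serpinb9, Serpinh1 and Serpine2, the last with 6 matches that overlap in part, and CACGTG, in 6.42% of windows, in none of the 8. The windows of Serpinf1 and Serpini1 held none of the 6 motifs. A match describes letters and not binding. The 250 bases before the start are printed for Serpinb2 (chr13:24055771-24056020, plus strand), which was listed at 0 in CTRL, and for Serpina3l (chr6:129062956-129063205, plus strand), which is listed as LOC299282 and had a log2 ratio of 2.87. They are also printed for Serpinf1 (chr10:60760899-60761148, minus strand) and for the collagen chaperone gene Serpinh1 (chr1:163062977-163063226, minus strand). Each runs 5' to 3' on the strand of its gene, and capitals mark the match to the loose AP-1 motif in Serpinb2, the STAT match in Serpina3l and the heat shock element in Serpinh1.
Serpinb2: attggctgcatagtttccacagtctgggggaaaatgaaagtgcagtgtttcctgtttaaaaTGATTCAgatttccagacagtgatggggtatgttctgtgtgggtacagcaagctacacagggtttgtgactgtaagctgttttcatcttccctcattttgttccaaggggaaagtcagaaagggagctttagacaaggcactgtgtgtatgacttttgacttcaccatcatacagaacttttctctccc
Serpina3l: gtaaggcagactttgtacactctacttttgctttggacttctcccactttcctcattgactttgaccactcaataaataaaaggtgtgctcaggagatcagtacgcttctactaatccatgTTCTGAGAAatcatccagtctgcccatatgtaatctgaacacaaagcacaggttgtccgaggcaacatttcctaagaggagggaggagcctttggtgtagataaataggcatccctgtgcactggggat
Serpinf1: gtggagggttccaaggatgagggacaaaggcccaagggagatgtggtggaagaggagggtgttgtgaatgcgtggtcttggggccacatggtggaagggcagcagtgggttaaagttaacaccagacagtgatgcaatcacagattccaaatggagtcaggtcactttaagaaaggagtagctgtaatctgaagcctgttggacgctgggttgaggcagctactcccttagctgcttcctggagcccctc
Serpinh1: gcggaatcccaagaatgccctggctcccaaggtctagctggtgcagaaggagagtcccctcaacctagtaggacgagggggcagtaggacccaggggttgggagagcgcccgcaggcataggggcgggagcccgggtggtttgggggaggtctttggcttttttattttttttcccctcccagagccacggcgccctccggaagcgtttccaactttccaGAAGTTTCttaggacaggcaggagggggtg

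Serpinb2 (ENSRNOG00000002460, rn6 chr13:27449934-27463010) encodes PAI-2, which inhibits Plau and is produced by monocytes and macrophages and by stressed epithelial cells. It is listed at 0 in CTRL, and its FPKM in IR12 was 4.70. The log2 ratio of 2.51 on the scale with a pseudocount of 1 was the largest of the 39 serpin genes. The 9 neutrophil and monocyte markers summed to an FPKM of 11.4 in CTRL but to 127 in IR12, and the most abundant, Lyz2, had 9.73 and 76.9. All 7 of them with a mean FPKM of at least 1 were higher, beside 6.29% of all genes. However, 6 passed that filter only through IR12, so their direction, and for those nearest to 0 the 2-fold size, was fixed by it. Lyz2 alone was at 1 or more in both libraries. Mpo is listed at 0 in both. The list of resident microglia, in contrast, had a summed FPKM of 14.7 and 14.8, with none of 4 genes higher or lower. Its genes did not share 1 direction. Aif1, the most abundant, had 5.42 and 7.36, and Csf1r 3.61 and 3.71. C1qa had 2.61 and 2.34, P2ry12 1.67 and 0.650, Cx3cr1 1.16 and 0.676, and Tmem119 0.231 and 0.0967. With a pseudocount of 0.1 the log2 ratio of P2ry12 was -1.23, past the limit. An ocular surface list was low, with a summed FPKM of 1.57 in CTRL and 15.0 in IR12, of which Krt12 made up 0.874 and 12.5, while Krt5 and Krt14 were listed at 0 in CTRL and reached 0.481 and 0.233. Of its 7 genes 5 are listed, 2 had a mean FPKM of at least 1, both only through IR12, and 1 was higher, beside 6.29% of all genes. The part of these cell types in the level of Serpinb2 was not tested.

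Serpini1 (ENSRNOG00000010248, rn6 chr2:174013288-174111752) encodes neuroserpin, a secreted inhibitor of Plat that is made mainly by neurons. It was the most abundant of these serpins in both libraries, with FPKM values of 32.8 in CTRL and 21.0 in IR12, and the log2 ratio was -0.62. The difference is absent on the TPM scale, where the log2 ratio was 0.00, or -0.59 relative to the median of all genes. Retinal ganglion cell markers, of which 5 of 6 had a mean FPKM of at least 1, were neither higher nor lower, with a summed FPKM of 308 in CTRL and of 250.2 in IR12 and Nefl as the most abundant gene. Their part in the level of Serpini1 was not tested.

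Serpine2 (rn6 chr9:85560863-85626094) encodes protease nexin-1, which inhibits thrombin and the plasminogen activators at the cell surface and is made by glia, among other cells. Its FPKM was 5.30 in CTRL and 6.29 in IR12, and the log2 ratio was 0.21. Serpine3, a less studied member of the clade, had 0.258 and 0.566. The part of the Mueller glia, whose markers were mostly lower, in the level of Serpine2 was not tested.

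Some of the proteases that serpins act on were higher in IR12. Of the 33 genes on a list of serpin target proteases, 9 had a mean FPKM of at least 1, and 5 of these were higher (6 on the TPM scale), 4 within the limit and none lower, with a median log2 ratio of 1.09. Over all genes 6.29% were higher, or 8.29% at a mean FPKM from 1 to under 10, and 20.7% on the TPM scale. Plat, the tissue plasminogen activator, had 8.82 in CTRL and 39.9 in IR12. Plau, the urokinase gene, was listed at 0 in CTRL and reached 8.54 in IR12, so that it passed the filter only through IR12. Of the 7 genes at 1 or more in both libraries, 4 were higher, beside 4.37% of all such genes, and the median was again 1.09. Both activators were thus among the higher genes, together with Ctsl (187 and 399), C1r and C1s. Ctsl and Ctsb (183 and 230.2), with Plat, were the 3 most abundant proteases of the list.

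The levels of 2 inhibitors over that of Plat, ratios chosen after the values were seen, were computed from FPKM within each library. The FPKM of Serpini1 was 3.72 times that of Plat in CTRL and 0.526 times in IR12. For Serpine2 the ratios were 0.601 and 0.158. Plat transcripts thus exceeded those of either inhibitor in IR12, while those of Serpini1 exceeded Plat in CTRL. Ratios within a library do not depend on the scaling between libraries, and these compare levels of RNA, since inhibitor protein or protease activity was not measured.

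**Figure D2:**
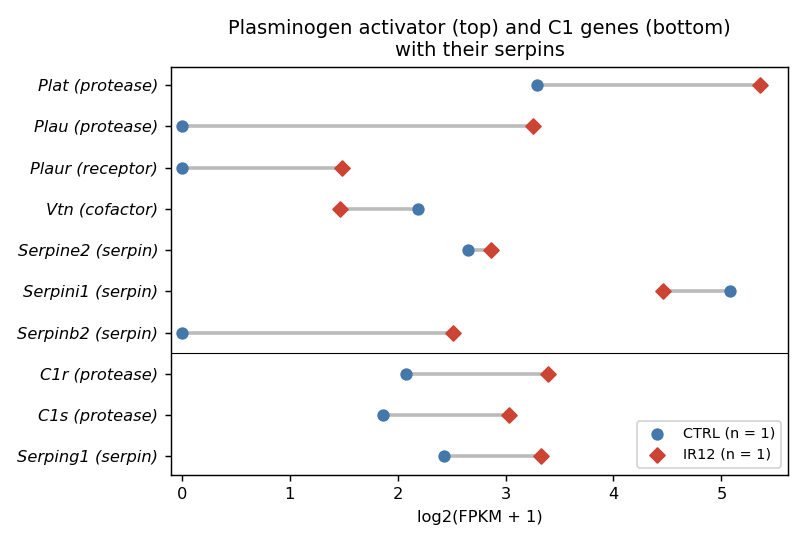
Levels of plasminogen activator genes (top) and C1 protease genes (bottom) with serpins that act on them, the receptor Plaur and the cofactor Vtn, as log2(FPKM + 1), with a circle for CTRL, a diamond for IR12 and 1 library each. Plat, Plau and Serpinb2 lie to the right in IR12, while Serpini1 and Vtn lie to the left.

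Receptors and cofactors of serpins were mostly within the limit, as were genes in general. Their list also holds Agt, which is itself a serpin by fold and counts in the numbers that follow. Of 23 listed genes, 17 had a mean FPKM of at least 1, with 1 higher, 1 lower and a median log2 ratio of -0.30 (0.16 on the TPM scale). These shares, 5.88% each, lie near the 6.29% higher and 6.05% lower of all genes, whose median was 0.02 (0.60 on the TPM scale). The counts thus do not set this list apart. The number lower was 4 with a pseudocount of 0.1 and 2 when centred on the median gene, and the number higher stayed at 1 in both cases and was 2 on the TPM scale. Rpsa, a laminin receptor to which the Serpinf1 protein binds, was higher with FPKM values of 199.7 in CTRL and 421 in IR12, and Lrp2, an endocytic receptor, was lower with 6.46 and 1.48. Rpsa, Lrp6 (52.4 and 51.9) and Vldlr (43.7 and 55.0) were the most abundant. Plaur, the urokinase receptor, was listed at 0 in CTRL and reached 1.80 in IR12, with a mean under 1. Vtn, the vitronectin gene, had 3.56 and 1.76, and Lrp1, which clears serpin and protease complexes, had 14.0 and 8.99. Pnpla2 is listed at 0 in both libraries.

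Serping1 (rn6 chr3:72161189-72171078) encodes C1 inhibitor, which blocks the complement proteases C1r and C1s and the contact system. Its FPKM was 4.39 in CTRL and 9.03 in IR12, which is 2.06-fold as a plain ratio and 0.90 on the log2 scale with the pseudocount of 1, just short of the limit used. Both of its main targets were higher in IR12. C1r had 3.21 and 9.52, and C1s had 2.63 and 7.17. The FPKM of Serping1 over the sum of the targets was 0.751 in CTRL and 0.542 in IR12, so the inhibitor differed by less than its proteases.

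The clade b serpins, which act inside cells and on leukocyte proteases, lie in clusters on 2 chromosomes. Of the 6 clade b genes on chromosome 17, 3 were expressed, and of the 10 on chromosome 13, only Serpinb2 was. Serpinb6 (rn6 chr17:32190801-32209590), an inhibitor of cathepsin G found in many cell types, had FPKM values of 14.7 in CTRL and 16.2 in IR12. Serpinb9 (rn6 chr17:32650441-32661865), the granzyme B inhibitor, had 8.35 and 9.39. The log2 ratios were 0.13 and 0.15. Serpinb1a (rn6 chr17:32904119-32911495), an inhibitor of neutrophil elastase and cathepsin G, had 1.42 and 3.41, which is 2.39-fold as a plain ratio and 0.86 on the log2 scale, short of the limit used. The neutrophil and monocyte marker Lyz2, at 1 or more in both libraries and given beside Serpinb2, was past the limit, and the part of such cells in the level of Serpinb1a was not tested.

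The leukocyte proteases that these serpins block were not seen. Elane, Prtn3, Ctsg and Gzmb are listed at 0 in both libraries, and so are Gzmk, Klk6, Klk8, Proc, F11 and Tmprss6, which makes 10 of the 33 target proteases. The inhibitors Serpinb1a, Serpinb6 and Serpinb9 were thus listed without the transcripts of their best known targets, although a listed 0 is no proof of absence.

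The remaining members of clade b were low. Serpinb10, next to Serpinb2 on chromosome 13, had FPKM values of 0.0490 in CTRL and 0.201 in IR12. Serpinb3a was listed at 0 in CTRL and reached 0.198 in IR12. Serpinb6b had 0.767 and 0.613, Serpinb5 0.109 and 0.112, Serpinb8 0.0232 and 0.0271, and Serpinb11 0 and 0.0223. Listed at 0 in both libraries were Serpinb1b, Serpinb3, Serpinb7, Serpinb9d, Serpinb12 and Serpinb13. Values this small can rest on few reads. Among 853 genes above 0 in both libraries with a mean FPKM under 0.1, the ratio of CTRL to IR12 was within 0.02 on the log2 scale of 1.71 for 224 genes, or 26.3%. If that ratio is what a read is worth in CTRL over IR12, the values of Serpinb8 stand as 2 reads in IR12 to 1 in CTRL, and those of Serpinb5 as 7 to 4, or multiples of these.

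Serpinf1 (ENSRNOG00000003172, rn6 chr10:62241756-62254287) encodes PEDF, a serpin without inhibitory activity that is secreted by the pigment epithelium and by other cells. Its FPKM was 2.94 in CTRL and 0.311 in IR12, which is 9.47-fold lower as a plain ratio and -1.59 on the log2 scale. On the TPM scale the log2 ratio was -1.20, or -1.80 relative to the median of all genes. Serpinf1 passes the filter only through CTRL, which fixes the direction, so the same direction on both scales is no test of it. Its neighbour Serpinf2, which encodes antiplasmin, had 0.587 and 0.395.

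Markers of tissues next to the retina differed between the libraries. Over all genes 6.29% were higher and 6.05% lower, or 20.7% and 3.22% on the TPM scale, and these shares stand beside the counts here. Of 7 pigment epithelium markers, 6 had a mean FPKM of at least 1, with none higher and 1, Rpe65, lower (11.1 in CTRL and 4.88 in IR12), whereas on the TPM scale 2 were higher and none lower. The summed FPKM was 105 and 129.9, and Ttr was the most abundant with 61.8 and 87.4. All 8 lens markers were lower, with a summed FPKM of 1787 in CTRL and of 211 in IR12 and Cryaa (1118 and 124) as the most abundant. Of 7 fibroblast and connective tissue markers, 2 had a mean FPKM of at least 1, and both were lower. These were Fbln1 (17.0 and 1.21), the most abundant, and Pdgfra (7.28 and 1.88). The summed FPKM of the list was 25.6 and 3.63. Under that mean, Col3a1 had 0.427 and 0.376 and Dcn 0.665 and 0.0916. Lum and Col1a1 were nearer to 0, and Col1a2 is listed at 0 in both. On the TPM scale 7 lens and 1 connective tissue markers were lower. The lens markers, Fbln1 and Pdgfra were thus lower in IR12 together with Serpinf1, and the part of their tissues in its level was not tested. The receptors Plxdc1 (2.40 and 1.10) and Plxdc2 (12.5 and 7.56) of the PEDF protein had log2 ratios of -0.70 and -0.65, although with a pseudocount of 0.1 that of Plxdc1 was -1.07, past the limit.

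The endothelium and pericyte list bears on the vessels that PEDF acts on. Of its 8 genes, 7 are listed and had a mean FPKM of at least 1. None was higher and 1, Rgs5, was lower (38.6 in CTRL and 17.6 in IR12), a call that is lost on the TPM scale, beside 6.29% higher and 6.05% lower of all genes. Its summed FPKM was 159.9 and 97.2, most of it from Kdr, which had 108 and 66.8. The other genes did not share 1 direction. Cdh5 had 0.883 and 1.63, Vwf 1.91 and 2.44, and Tek 3.46 and 3.40. Cldn5 (2.92 and 1.65) and Pdgfrb (4.59 and 3.66) differed in the direction of Kdr.

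Serpinh1 (rn6 chr1:164301010-164308317) encodes Hsp47, a chaperone of procollagen in the endoplasmic reticulum that does not inhibit proteases. Its FPKM was 12.7 in CTRL and 14.3 in IR12. The log2 ratio was 0.17, and on the TPM scale 0.76, or 0.17 relative to the median of all genes there. Of 24 entries for collagen folding partners, 20 had a mean FPKM of at least 1. Of these, 2 were higher and 4 lower, beside 6.29% and 6.05% of all genes, and the median log2 ratio was -0.07, beside 0.02. On the TPM scale 5 were higher, 4 were lower and the median was 0.40, below the 0.60 of all genes, of which 20.7% were then higher and 3.22% lower. The 4 lower genes were all collagens. Col4a1 had 32.8 in CTRL and 5.32 in IR12, Col4a2 19.9 and 4.73, Col9a1 27.4 and 1.35, and Col2a1, which passed the filter only through CTRL, 4.91 and 0.605. Within the limit were Col18a1 (5.44 and 5.15), Col5a2 (2.53 and 2.35), Col5a1 (2.68 and 2.16) and Col6a1 (0.654 and 1.78). The higher genes were the collagen modifying genes Plod3 (4.64 and 11.01) and Crtap (1.65 and 6.52). The most abundant were P4hb (112 and 162), Ppib (64.3 and 103) and P4ha1 (76.8 and 43.3). Serpinh1 thus differed little while these 4 collagen genes were lower, and the lens markers, Fbln1 and Pdgfra, given beside Serpinf1, were lower as well. Their part in the collagen values was not tested.

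Serpinh1 is also a heat shock gene. Of 18 entries for other heat shock genes, 14 had a mean FPKM of at least 1. Of these, 1 was higher and 1 lower, beside 6.29% and 6.05% of all genes, and the median log2 ratio was 0.52, beside 0.02. On the TPM scale 9 were higher and the median was 1.12, but that scale raises all genes, of which 20.7% were then higher with a median of 0.60. Hspa5, the chaperone BiP, was higher with 204 in CTRL and 483 in IR12, and Cryab, which is abundant in lens, was lower with 718 and 154. Hspa8 (729 and 1303) and Hsp90ab1 (370 and 646) were, with Cryab, the most abundant. The log2 ratio of Serpinh1 thus lay below the median of this list.

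The genes of clades a, c and d were close to 0. In clade a, 7 of 13 genes had 0 in both libraries, namely Serpina1f, Serpina4, Serpina6, Serpina9, Serpina10, Serpina12 and Serpina16. The highest FPKM of the other 6 was 0.206, for Serpina11 in CTRL, which had 0.0298 in IR12. Serpina1, the gene of the antitrypsin of plasma, had 0.110 and 0.194. Serpina3c, Serpina3m and Serpina7, the last encoding a thyroxine carrier, were listed at 0 in CTRL and reached 0.0518, 0.0510 and 0.0236 in IR12, and Serpina5 had 0.0239 in CTRL and 0 in IR12. Serpinc1, which encodes antithrombin, and Serpind1, which encodes heparin cofactor II and shares its listed locus with Pi4ka, were listed at 0 in CTRL and reached 0.0545 and 0.0202 in IR12. Serpini2, of clade i, was listed at 0 in CTRL and reached 0.0331 in IR12. Serpins of clades a, c and d were therefore barely detected under these symbols in either library. Blood and plasma markers, of which 6 of 7 are listed and 2 had a mean FPKM of at least 1, were neither higher nor lower (1 higher on the TPM scale). Their summed FPKM was 22.7 and 36.8, Hbb (20.4 and 35.1) was the most abundant, and Fgb is listed at 0 in both libraries.

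Clade a nevertheless had a member with a larger value under another symbol. The rule on symbols leaves out serpin genes that are listed under other names. LOC299282, which RefSeq names Serpina3l, lies at rn6 chr6:127941526-128080889 in the cluster that holds 12 of the 13 clade a genes and shares its listed locus with Serpina3c. Its FPKM was 0.279 in CTRL and 8.36 in IR12, which is 29.9-fold as a plain ratio and 2.87 on the log2 scale. It reaches a mean FPKM of 1 only through IR12, and with so low a value in CTRL that filter fixes the direction and the 2-fold size. It was chosen after its value was seen. The Serpina3 genes of the rat are close tandem copies that encode relatives of antichymotrypsin, so reads may be split between them and the value of any 1 copy is uncertain. LOC299277 (Serpina3j) and LOC100909605 (Serpina3a), from the same cluster, are listed at 0 in both libraries. Agt, the angiotensinogen gene and a serpin by fold, had 3.90 and 1.69, a log2 ratio of -0.86.

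Summed by clade, the direction was not shared. Clade b had a summed FPKM of 25.4 in CTRL, and in IR12 it had 34.9. Both Serpinb2, listed at 0 in CTRL, and the chromosome 17 genes, with 25.2 and 29.6, contributed to that difference. Clade i had 32.8 and 21.0, nearly all of it Serpini1, and clade f had 3.53 and 0.706. The single genes of clades g and h had the values given for Serping1 and Serpinh1. Clade a had 0.340 and 0.350 over the 13 genes listed under its symbols, which leave out LOC299282. On the TPM scale the log2 ratio of summed FPKM was 0.0070 for clade i and -1.67 for clade f. That scale raises the median of all genes, and relative to it Serpini1 lay at -0.59.

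**Figure D3:**
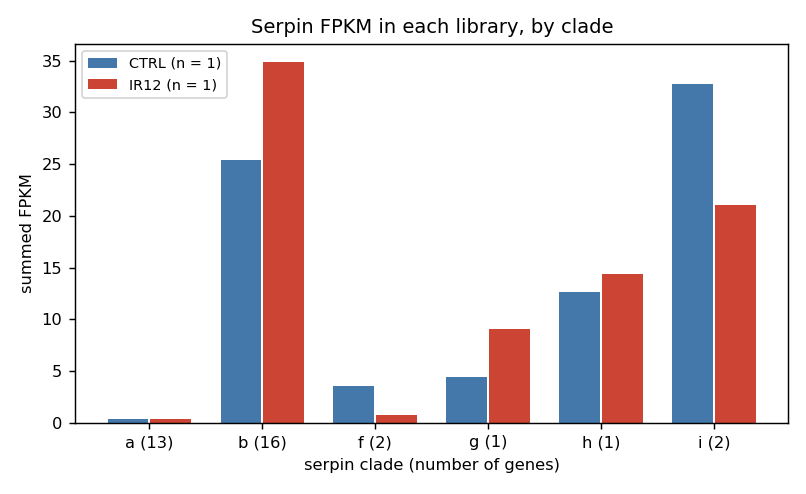
Summed FPKM of the serpin genes of clades a, b, f, g, h and i in CTRL and IR12, 1 library each, with the number of genes in brackets. The bar of clade i is lower in IR12 (21.0, compared with 32.8 in CTRL), and that of clade b is higher (34.9, compared with 25.4).

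Protease inhibitors of other families give a comparison with the serpins. Of 30 such genes, 19 had a mean FPKM of at least 1. Of these, 2 were higher and 3 lower, beside 6.29% and 6.05% of all genes, and the median log2 ratio was -0.39, beside 0.02. On the TPM scale 3 were higher, 1 was lower and the median was 0.20, beside 20.7% and 3.22% of all genes and their median of 0.60. Timp1, an inhibitor of matrix metalloproteases, had 4.71 in CTRL and 169 in IR12, and Slpi, a secreted inhibitor of leukocyte elastase, was listed at 0 in CTRL and reached 8.37 in IR12, its only way past the filter. The lower genes were Timp3 (24.2 and 10.7), Spock1 (9.91 and 4.02) and Wfdc1 (4.06 and 0.685), the last kept only through CTRL. Timp3 and Spock1 were within the limit on the TPM scale. The most abundant inhibitors were Cst3 (619.6 and 398), Pebp1 (131 and 146) and Timp1. None of the serpins described reached the level of Timp1 or Cst3 in IR12.

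Reactive glia genes had the largest median of the 6 pathway lists. Of its 12 genes, 10 had a mean FPKM of at least 1, with none lower and a median log2 ratio of 2.69, beside 0.02 for all genes. Higher were 6 of them, beside 6.29% of all genes, and on the TPM scale 8, beside 20.7%. The higher genes were Timp1, which is also on the list of other inhibitors, Cd44 (40.8 in CTRL and 299 in IR12), Osmr (0.990 and 26.5), Gfap (2.95 and 21.9), Lcn2 (0.473 and 11.8) and Cxcl10 (0.139 and 11.5). Vim (121 and 221), Cd44 and Timp1 were its most abundant genes. Of the 10 genes, 4 passed the filter only through IR12, among them Osmr, Lcn2 and Cxcl10, so their direction, and for Cxcl10 the 2-fold size, was fixed by it. Over the 6 genes at 1 or more in both libraries, 3 were higher, beside 4.37% of all such genes, and the median was 1.70. The part of reactive glia in any serpin value was not tested.

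**Figure D4:**
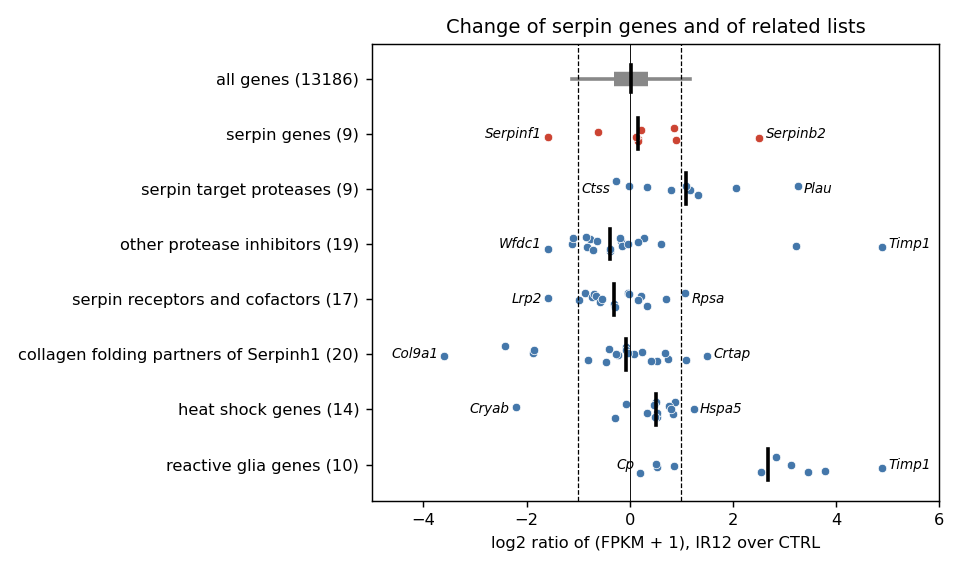
Log2 ratio of (FPKM + 1), IR12 over CTRL, for the 9 serpin genes described with a mean FPKM of at least 1 and for the genes of each list with the same mean, 1 point per gene, with the number of genes in brackets and the median as a black line. The grey bar spans the middle 50% and the grey line the middle 90% of all 13186 genes, dashed lines mark 2-fold, and the medians run from -0.39 for other protease inhibitors to 2.69 for reactive glia genes, with 0.17 for serpins.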

How the data were processed

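RNA-seq libraries were made from total RNA of rat retina with ribosomal RNA removal. The kit is a stranded total RNA kit in the labels but a stranded mRNA kit in the series description. The authors deposited FPKM for 32662 genes, 1 column per library. The submitters' processing notes name STAR 2.5.2b, Cuffdiff 2.2.0 and rn6, without saying which step each served, and the normalization behind FPKM is not stated. Reads were shortened at the 3' end by the authors. No read counts were used here, so the depth per gene is unknown and no interval was computed. Listed starts count from 0 (189 of 206 microRNA loci then have the length of the RefSeq hairpin, and 0 if starts count from 1) and were raised by 1.

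The log2 ratio of (FPKM + 1) and the 2-fold limit stand in for a test, because each condition has 1 library. Genes were kept at a mean FPKM of at least 1. Alternatives were the TPM scale, log2 ratios centred on the median gene, a pseudocount of 0.1, a mean FPKM of at least 5, no filter and a 1.5-fold limit. The plain FPKM ratio, the all-gene counts on the TPM scale and an FPKM of at least 1 in both libraries were added after seeing the data. Named genes are all serpins, the genes past the limit and the 3 most abundant of each of 6 pathway lists, and the most abundant gene and those at 0 in both libraries of each of 11 marker lists. Other list genes, LOC299282, LOC299277, LOC100909605 and the ratios of inhibitors to Plat were chosen after their values were seen. The members and lists were chosen with earlier results of these data known. All 39 serpin symbols were found in the RefSeq gene table for GRCr8. A serpin and a rod marker are not reported here and enter no count of serpins or markers. The scripts were tested on simulated data and used Python 3.11.15, numpy 2.4.6, pandas 2.3.3 and matplotlib 3.10.9.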

Additional observations from a re-analysis of the deposited data

How the results depend on the processing

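Each of 47 results was computed again under at least 1 alternative, which gave 163 values. The TPM scale was applied to all 47, and it was the only alternative for the sums by clade. Among these results, the 1.5-fold limit and the plain ratio were applied only to the numbers of serpins higher and lower, and a mean FPKM of at least 5 and no filter only to these numbers and to the medians of serpins and clades. Of the 163 values, 124 stayed close to the value in the report, meaning a ratio of at most 1.5 for counts and, for log2 ratios, a difference that as a fold is under 1.5, so that a log2 ratio near 0 can turn its sign and still be close. The other 39 moved and 0 of the values past 2-fold changed sign, and 21 of those that moved were on the TPM scale.

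The number of serpins at least 2-fold higher, 1 in the report, was 3 with a pseudocount of 0.1, 3 on the TPM scale and 3 with a 1.5-fold limit. With a mean FPKM of at least 5 it was 0, since Serpinb2 is then left out. With the plain FPKM ratio it was 2, namely Serping1 and Serpinb1a, because Serpinb2 has no ratio. The number lower, 1 in the report, was 0 with a mean FPKM of at least 5, which leaves out Serpinf1, and 2 with the 1.5-fold limit. With an FPKM of at least 1 in both libraries, chosen after seeing the data, both numbers were 0, because Serpinb2 and Serpinf1 each reach 1 in only 1 library. The median of reactive glia genes then went from 2.69 to 1.70, with 3 in place of 6 higher, and the other protease inhibitors had 1 in place of 2 higher. The receptors and cofactors had 4 lower with a pseudocount of 0.1 and 2 when centred, in place of 1. The median of the serpins, 0.17 in the report, was 0.75 on the TPM scale, where that of all genes was 0.60, and 0.0035 without a filter. The median of clade f went from -1.59 to -2.89 with a pseudocount of 0.1 and to -0.89 without a filter, with Serpinf2 included.

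The TPM scale raises genes in IR12 by its construction. The median of clade h went from 0.17 to 0.76 and that of clade i from -0.62 to 0.0046. The log2 ratio of summed FPKM became 0.69 for clade a, 1.10 for clade b, 0.95 for the 2 genes described of clade e, -1.67 for clade f, 1.69 for clade g, 0.83 for clade h and 0.0070 for clade i, in place of 0.04, 0.46, 0.30, -2.32, 1.04, 0.18 and -0.64. The median of other protease inhibitors went from -0.39 to 0.20, with 3 higher and 1 lower in place of 2 and 3, and that of heat shock genes from 0.52 to 1.12, with 9 higher in place of 1. The collagen folding partners had 5 higher in place of 2, and the receptors and cofactors 2 in place of 1. Over all genes, 2731 were higher and 425 lower, in place of 829 and 798.

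No paired analysis was possible because each condition has 1 library, and none was left out. Animal, dissection and injury differ together here and cannot be told apart. The depth per gene is unknown, which limits the serpins near 0 most.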
